A study of Mus musculus with 2 samples.

Results

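Autophagy is the route by which a cell wraps part of its own cytoplasm in a membrane and delivers it to the lysosome for breakdown. The account below covers 36 genes of that route, chosen by name for their known roles but with earlier results of these data known, and all 36 have a row among the 44792 genes of the deposited count table. Counts of these 36 genes came from OCCM-30, a mouse cell line that is immortalized and shows features of cementoblasts. Cementoblasts build the mineral layer of tooth roots. The compressed group is 1 library of OCCM-30 cells placed under compressive force, and the control group is 1 library of OCCM-30 cells without that treatment. Both groups share the same line, genotype and serum-containing medium. The labels state neither how strong the force was nor how long it lasted, and they do not say whether the line is a single clone. With 1 library per group no difference has a replicate check, so each ratio of the compressed over the control library compares these libraries and not the conditions, and carries a 95% interval for counting error only.

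Autophagosome formation starts when the ULK1 kinase complex, released from inhibition by the nutrient-sensing kinase complex mTORC1, switches on a lipid kinase that marks the nascent membrane, the phagophore. Enzymes that resemble the ubiquitin pathway then attach small ATG8 proteins (LC3 and GABARAP) to that membrane, and receptors such as p62 tie cargo to them. The closed vesicle fuses with the lysosome, whose acid hydrolases digest the contents. TFEB and TFE3, transcription factors of the MiT family, bind E-box motifs with a CACGTG core in many lysosomal and autophagy genes.

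Depth was close in both libraries, with 24296292 counts under compression and 25049919 for the control. The cementoblast and osteoblast markers Runx2, Sp7, Alpl, Spp1 and Col1a1 reached 1 CPM, the count scaled to library size, in at least 1 library. Bglap did not, and Ibsp and Bmp3 had 0 counts in both, which for counting error alone allows up to 0.124 CPM under compression and 0.12 CPM in the control. Glb1, a lysosomal hydrolase used by most cells, also had 0 counts in both, so a 0 in this table does not by itself show that a transcript was missing. Runx2, with 4416 counts against 5788, was at least 20% lower at a ratio of 0.787 (0.757 to 0.819). Spp1 at 1.10 (1.06 to 1.15) and Col1a1 at 1.03 (1.02 to 1.04) had intervals above 1, and those of Sp7 and Alpl included 1. Macrophage and osteoclast markers, listed because such cells are rich in lysosomes, summed over 10 genes to 20.1 CPM under compression and to 21.1 CPM in the control. Of these 10 genes, 4 passed 1 CPM (Cd68, Csf1r, Cd14 and Ctsk, with intervals that included 1), and the defining genes Ptprc, Adgre1 and Ctss had 0 counts in both libraries.

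Most of the 36 members were modestly more abundant in the compressed library, and none differed 2-fold. The ratio was above 1 for 30 of the 36 genes (83.3%), of which Atg12, Tfeb and Lamp1 fell below 1 under at least 1 other scaling, against 48.6% of all 14001 genes with at least 1 CPM in either library. The counting interval lay above 1 for 24 of the 36, where the share over all genes was 26.3%, and below 1 for 6, where it was 28.6%. The median log2 ratio was 0.18 over the 36 genes and -0.01 over all genes tested. In bulk RNA, more transcript per cell and more cells of a kind cannot be told apart. The direction of a small ratio also depends on library scaling. The scalings tried moved the median of all genes by at most 0.012 on the log2 scale. Each of them brings the libraries to a common level, so a shift shared by most genes could not show in that value.

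Counts past fixed folds place these genes against the background of the whole table. No member passed a 2-fold difference in either direction, against 3.06% of all tested genes higher and 0.929% lower. Past 1.5-fold, 3 members were higher (Wipi1, Ulk1 and Nbr1), or 8.33% of 36 against 7.31% of all genes, a share near the background, and 0 were lower against 3.71%. By at least 25%, 8 were higher, or 22.2% against 14.3%, and 1 was lower by at least 20%, the same fold downward, or 2.78% against 11.3%. Among genes of at least 15 CPM, a limit chosen after the data were seen that leaves 34 members, the 8 higher genes were 23.5% against 11.0% of 8868 genes. At that limit intervals lay above 1 for 70.6% of members against 29.3% of all genes, and below 1 for 17.6% against 37.2%. Deep counts narrow an interval, so shares of intervals depend on depth, which was not matched. The differences were therefore small in size, and they lay mostly in 1 direction.

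**Figure D1:**
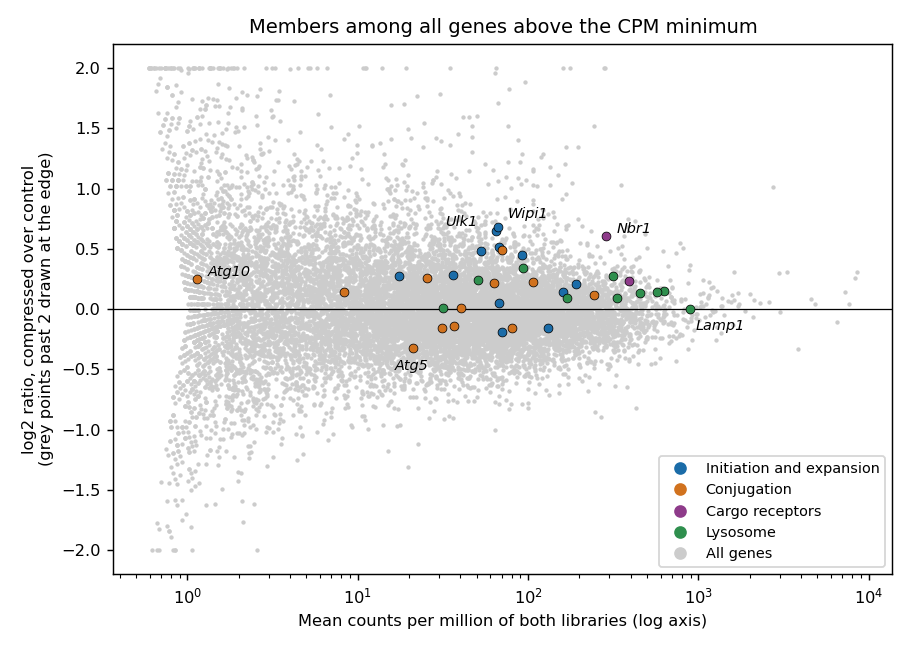
Each point is a gene with at least 1 CPM in either library, with mean CPM on a log x axis and the log2 ratio of the compressed over the control library on the y axis (grey points beyond 2 are drawn at the edge); coloured points are the 36 members by step. The members lie between -0.32 and 0.68, mostly above 0, inside the range of genes of like abundance.

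Promoter sequences were examined because MiT factors control many of these genes. Of the 36 genes, 29 had a promoter in the RefSeq table (GRCm38.p6), and the 250 bases before each transcription start were searched on both strands for CACGTG, the E-box core that MiT factors bind. It was present in 8 of the 29 genes (27.6%), against 6.86% of all 27025 genes, noncoding ones included, with a promoter in the table. The longer form TCACGTG, or CACGTGA on the other strand, occurred in 6 of 29 (20.7%) against 3.58%. A match is a description of these letters and not a bound site. The following 6 promoters are given, the first 3 from lysosomal genes with the motif and the last 3 from the members with large ratios that lack it, each written from 250 bases upstream to the base before the start. Capitals mark CACGTG, with the adjoining T or A where the longer form is present.
Lamp1, chr8:13158911-13159160, plus strand: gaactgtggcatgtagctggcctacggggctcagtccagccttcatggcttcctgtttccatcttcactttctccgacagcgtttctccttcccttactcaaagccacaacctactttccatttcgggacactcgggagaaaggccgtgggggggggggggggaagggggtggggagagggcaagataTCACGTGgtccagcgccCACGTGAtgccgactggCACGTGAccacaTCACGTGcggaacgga
Mcoln1, chr8:3500269-3500518, plus strand: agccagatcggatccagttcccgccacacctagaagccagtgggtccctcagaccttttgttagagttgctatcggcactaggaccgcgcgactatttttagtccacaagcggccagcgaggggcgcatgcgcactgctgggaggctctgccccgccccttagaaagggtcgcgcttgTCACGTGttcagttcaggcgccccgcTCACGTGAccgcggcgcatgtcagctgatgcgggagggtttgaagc
Ctsd, chr7:142387828-142388077, minus strand: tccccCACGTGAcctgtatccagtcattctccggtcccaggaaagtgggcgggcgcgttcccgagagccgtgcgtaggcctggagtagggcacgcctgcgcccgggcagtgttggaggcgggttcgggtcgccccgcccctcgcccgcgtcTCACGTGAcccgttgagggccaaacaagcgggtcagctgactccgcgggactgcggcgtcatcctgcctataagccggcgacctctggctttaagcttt
Wipi1, chr11:109611390-109611639, minus strand: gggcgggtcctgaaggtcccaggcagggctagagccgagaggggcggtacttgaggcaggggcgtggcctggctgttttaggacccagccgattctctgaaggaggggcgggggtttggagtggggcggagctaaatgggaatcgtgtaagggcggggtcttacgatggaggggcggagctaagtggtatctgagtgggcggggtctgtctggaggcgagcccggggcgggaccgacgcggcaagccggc
Nbr1, chr11:101551857-101552106, plus strand: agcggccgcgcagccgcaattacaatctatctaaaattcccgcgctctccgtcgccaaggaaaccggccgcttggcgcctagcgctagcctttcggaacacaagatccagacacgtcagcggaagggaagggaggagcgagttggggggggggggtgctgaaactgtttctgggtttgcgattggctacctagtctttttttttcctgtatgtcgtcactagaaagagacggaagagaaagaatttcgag
Gabarapl1, chr6:129532942-129533191, plus strand: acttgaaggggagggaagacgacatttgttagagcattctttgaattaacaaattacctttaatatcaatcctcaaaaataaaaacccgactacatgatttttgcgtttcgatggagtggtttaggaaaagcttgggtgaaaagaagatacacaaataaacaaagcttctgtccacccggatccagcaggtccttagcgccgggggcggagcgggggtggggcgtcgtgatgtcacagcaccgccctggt

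Lamp1 carries 4 copies of CACGTG, beginning 61, 45, 28 and 15 bases before its start, and Mcoln1 carries 2, beginning 71 and 45 bases before. Ctsd has 2, at 245 and 98 bases, and Atg3 has 2, at 94 and 71 bases. Atg5, Atg7, Ctsa and Ctsl have 1 each, and the starts used for Atg5, Ctsl, Ctsa and Atg7 lie 17, 252, 901 and 27969 bases inside the outer end of the gene. None of the 8 members higher by at least 25% has the motif in this window, and all 8 have a promoter in the table. Of the 21 other members with a promoter, 8 have it, and of all genes with a promoter 6.86% have it. The median log2 ratio was 0.11 over the 8 genes with CACGTG, with a range of -0.32 to 0.28, and 0.23 over the 21 without it, with a range of -0.19 to 0.68. For the longer form the medians were closer, 0.19 with it and 0.22 without. Whether either form bears on the ratios was not tested, and bases after the start were not searched. The 5-letter cores of the hypoxia response element were counted too, and their matches overlap the E-box, since CACGTG contains ACGTG. That core was present in 13 of 29 members (44.8%) against 18.5% of all genes, and GCGTG in 17 of 29 (58.6%) against 30.9%. Both forms were therefore present in a larger share of member genes than of all genes with a promoter, with base composition not matched.

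The initiation kinase complex held one of the leading genes. Ulk1, the kinase that starts autophagosome formation, on chromosome 5 at 110784489 to 110810120 (GRCm38), had 1921 counts under compression and 1268 in the control, or 79.1 against 50.6 CPM. Its ratio was 1.56 (95% counting interval 1.46 to 1.68). Atg13, the regulatory subunit that links the kinase to mTORC1 control, had 1497 counts against 1107, a ratio of 1.40 (1.29 to 1.51). Rb1cc1, the scaffold FIP200, had 5002 counts against 4478 and a smaller ratio of 1.15 (1.11 to 1.20). Ulk2, the close relative of Ulk1, had 1675 counts against 1674, and the interval around its ratio of 1.03 ran from 0.964 to 1.11. Atg101, a subunit outside the members, had a ratio of 1.01 (0.904 to 1.12). The complex was thus uneven, with the catalytic subunit Ulk1 and its partner Atg13 high and Ulk2 and Atg101 near 1. Set directly against each other, the Ulk1 ratio was 1.51 times that of Ulk2 (1.37 to 1.67), a value that does not depend on library scaling.

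The class III phosphatidylinositol 3-kinase complexes, which make the lipid that marks the phagophore, were split. Pik3c3, the catalytic subunit Vps34, had 972 counts against 824, a ratio of 1.22 (1.11 to 1.34). Atg14, the subunit that directs the complex to autophagosome formation, had 465 counts against 396, a ratio of 1.21 (1.06 to 1.39). Becn1 (Beclin 1), a subunit shared by both forms of the complex, had 2989 counts against 3445, a ratio of 0.895 (0.852 to 0.941). Uvrag, which replaces Atg14 in the form that acts on endosomes, had 1605 counts against 1887 and a ratio of 0.878 (0.821 to 0.939). Pik3r4, a subunit of these complexes outside the members, had a ratio of 1.04 (0.969 to 1.11). The kinase and its autophagy-specific subunit were therefore above 1, and Beclin 1 and the endosomal subunit below. Atg14 stood 1.38 times higher relative to Uvrag in the compressed library (1.19 to 1.61), while no gene of these complexes was 25% higher or 20% lower.

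All 4 members that act in phagophore expansion had intervals above 1, against 26.3% of all genes. Their median log2 ratio of 0.48 exceeded that of the members in the kinase complex (0.34) and in the lipid kinase complexes (0.06). The 12 other genes of initiation and expansion, outside the members, had a median log2 ratio of 0.03, against -0.01 over all genes. Only 1 of them was at least 25% higher (8.33% against 14.3% of all genes). Of the 12 members in initiation and expansion, 5 were. Of the 12 other genes, 5 had intervals above 1 (41.7% against 26.3%) and 2 below (16.7% against 28.6%). Among these, Atg2b lay above at 1.23 (1.18 to 1.29) and Wdr45b below at 0.929 (0.889 to 0.969). Wipi1, which reads the lipid mark on the phagophore, lies on chromosome 11 at 109573521 to 109611389 and had the highest ratio of all 36 members. It had 2002 counts under compression and 1289 in the control, 82.4 against 51.4 CPM, a ratio of 1.60 (1.49 to 1.72). Of all genes tested, 6.32% had a ratio as high as that of Wipi1. Atg2a, a lipid transfer protein that feeds the growing membrane, spans 6241478 to 6262304 of chromosome 19 and had 1919 counts against 1387, giving a ratio of 1.43 (1.33 to 1.53). Atg9a, the lipid scramblase of the vesicles that seed the phagophore, spans 75180861 to 75192010 of chromosome 1 and had 2600 counts against 1966, giving a ratio of 1.36 (1.29 to 1.45). Wipi2, which recruits the conjugation enzyme ATG16L1, had 4080 counts against 3819 and a ratio of 1.10 (1.05 to 1.15). The WIPI pair thus differed as the ULK pair did, with Wipi1 at 1.45 times the ratio of Wipi2 (1.34 to 1.58).

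**Figure D2:**
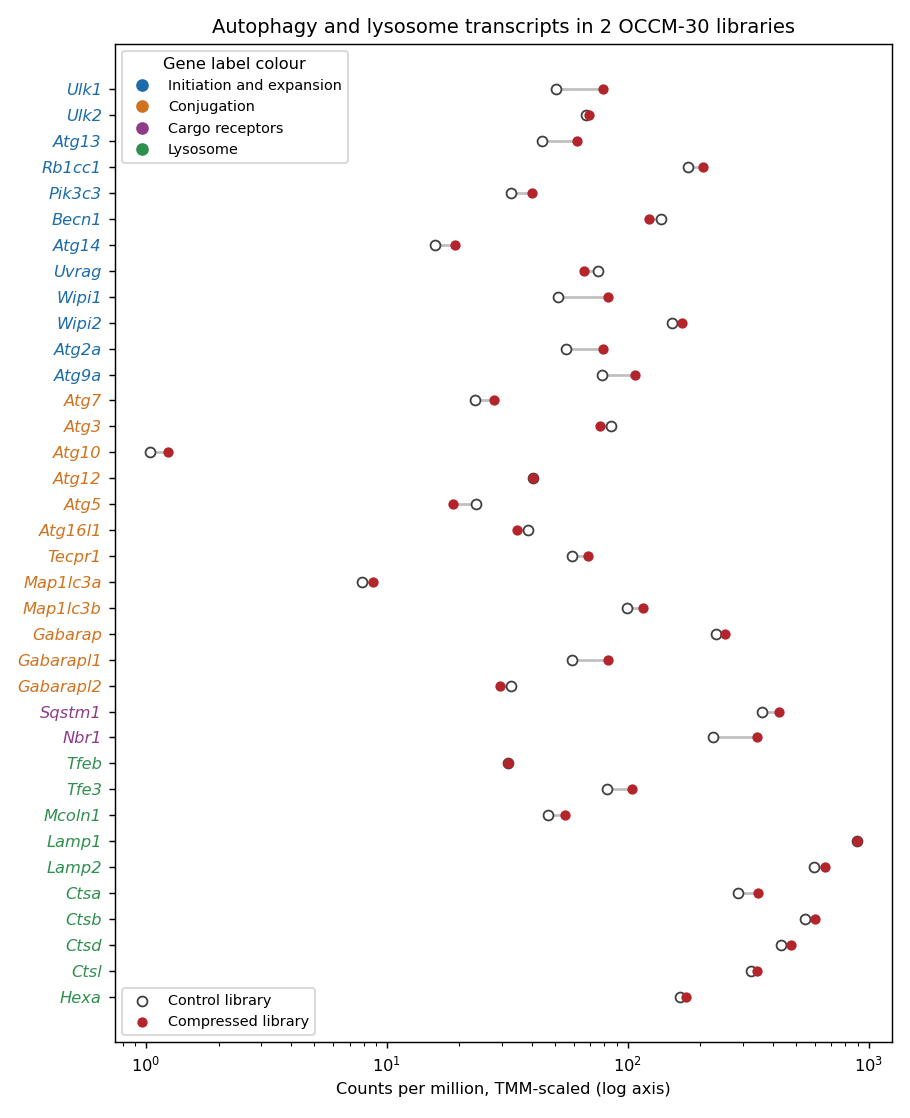
Each row is a member, with CPM on a log x axis, an open circle for the control library and a filled circle for the compressed library, and gene labels coloured by step. Wipi1, Ulk1, Nbr1 and Gabarapl1 show wide gaps, whereas the circles of Tfeb, Atg12 and Lamp1 coincide. Counts are not scaled by transcript length, so rows show differences within a gene and not levels between genes.

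The conjugation enzymes, grouped here with their partners, lay on both sides of 1. Their median log2 ratio was 0.01 over 7 genes, but -0.07 over the 6 with at least 5 CPM and -0.004 with DESeq2 scaling. Of the 7 intervals, 2 lay above 1 (28.6% against 26.3% of all genes), 3 below (42.9% against 28.6%) and 2 included 1. Atg5, which is joined to Atg12 and promotes LC3 attachment, on chromosome 10 at 44268322 to 44364299, had 456 counts against 589, or 18.8 against 23.5 CPM. Its ratio of 0.799 (0.705 to 0.904) was the lowest of the 36 members and just past the limit for 20% lower, a call lost with upper-quartile factors, a loess fit, a prior count of 5, or an interval widened for an assumed coefficient of variation of 0.1 between cultures. Atg16l1, the partner that places the Atg12 and Atg5 conjugate on the membrane, had 846 counts against 962, a ratio of 0.907 (0.826 to 0.996). Atg3, the enzyme that hands LC3 to the membrane lipid, had 1856 counts against 2134 and a ratio of 0.897 (0.843 to 0.956).

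The remaining genes of this group lay at or above 1. Atg7, the activating enzyme of both conjugation reactions, had 676 counts against 582, a ratio of 1.20 (1.07 to 1.34). Tecpr1, which binds the Atg12 and Atg5 conjugate, had 1654 counts against 1471, a ratio of 1.16 (1.08 to 1.246). Atg12 had 983 counts against 1009, and the interval around its ratio of 1.005 ran from 0.920 to 1.10. Atg10, which joins Atg12 to Atg5, had 30 counts against 26, the fewest of all members, and an interval of 0.681 to 2.10 in which a difference was not detectable at this depth. Atg5 and its conjugation partners Atg12 and Atg16l1 therefore held no gene with an interval above 1.

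Of the 5 ATG8 genes, 1 was at least 25% higher, or 20% against 14.3% of all genes. Gabarapl1, on chromosome 6 at 129533192 to 129542331, had 2006 counts under compression and 1476 in the control, 82.6 against 58.9 CPM, a ratio of 1.40 (1.31 to 1.501). Map1lc3b (LC3B), the usual marker protein of autophagosomes, had 2805 counts against 2480, a ratio of 1.17 (1.11 to 1.23). Gabarap had 6126 counts against 5844, a ratio of 1.08 (1.04 to 1.12). Map1lc3a (LC3A) had 212 counts against 198, and its interval of 0.906 to 1.35 included 1. Gabarapl2 was lower, with 715 counts against 822 and a ratio of 0.898 (0.811 to 0.993). Relative to its relatives, Gabarapl1 was 1.56 times Gabarapl2 (1.38 to 1.77) and 1.30 times Gabarap (1.20 to 1.40), while Map1lc3b over Map1lc3a gave 1.06 (0.859 to 1.30). A pseudogene of Gabarapl2, Gabarapl2-ps, had 0 counts in both libraries.

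Both cargo receptors among the members were higher, and unequally. The 8 cargo genes outside the members had a median log2 ratio of 0.02. Of their intervals, 3 lay above 1 (37.5% against 26.3% of all genes), 1 below (12.5% against 28.6%) and 4 included 1. Nbr1, a receptor for ubiquitin-tagged cargo, on chromosome 11 at 101552107 to 101581951, had 8360 counts against 5672, or 344 against 226 CPM. Its ratio was 1.52 (1.47 to 1.57), and its high counts made the interval the narrowest of the 8 genes that were at least 25% higher. Sqstm1 (p62), the best known receptor of this kind, had 10320 counts against 9053, or 425 against 361 CPM, a ratio of 1.18 (1.14 to 1.21). The ratio of Sqstm1 was 0.773 times that of Nbr1 (0.740 to 0.808), so these receptors did not move by the same amount.

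**Figure D3:**
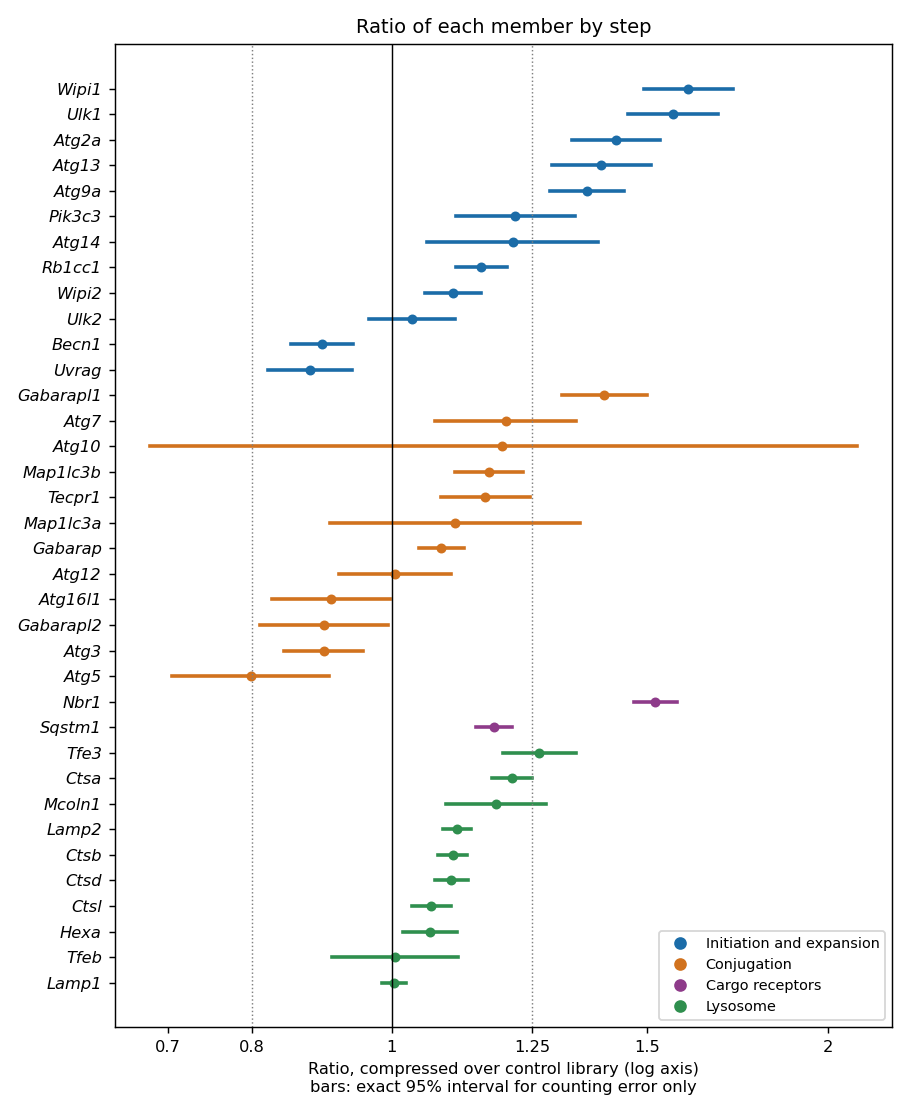
Each point is the ratio of the compressed over the control library for a member on a log x axis, ordered by ratio within each step, with a bar for the exact 95% counting interval and dotted lines at 20% lower and 25% higher. Past the upper line lie 5 genes of initiation and expansion, Gabarapl1, Nbr1 and Tfe3, and past the lower line lies Atg5.

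The lysosomal members shifted little, with all 10 ratios above 1 (Tfeb and Lamp1 not under every scaling) against 48.6% of all genes. Intervals lay above 1 for 8 of the 10 (80%) against 26.3%. Their median log2 ratio was 0.14. Of the MiT factors, Tfe3, on chromosome X at 7762530 to 7775202, gave 2527 counts against 2062, for a ratio of 1.26 (1.19 to 1.34). Tfeb, often called the master regulator of lysosomal genes, had 773 counts against 794, a ratio of 1.005 (0.909 to 1.11). Tfeb over Tfe3 gave 0.794 (0.707 to 0.893). Transcript counts do not report where these factors lie in the cell, which is how their activity is mainly set. The other family members were Mitf, with 120 counts against 94 and a ratio of 1.32 whose interval of 0.997 to 1.74 included 1, and Tfec, with 0 counts in both libraries.

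Lamp1, Lamp2, Ctsb and Ctsd, of the lysosomal membrane and lumen, had the deepest counts of the 36 members. Lamp1, an abundant glycoprotein of the lysosomal membrane whose promoter holds 4 CACGTG motifs, had 21757 counts against 22382, and its ratio of 1.003 (0.984 to 1.02) was closest to 1 among the members. Lamp2, its relative that also serves chaperone-mediated autophagy, had 15973 counts against 14864, giving 1.11 (1.08 to 1.13), or 1.11 times that of Lamp1 (1.07 to 1.14). Mcoln1, the lysosomal calcium channel TRPML1, had 1331 counts against 1164 and a ratio of 1.18 (1.09 to 1.28). Lamp1, Mcoln1, Ctsd and Atg3, which hold at least 2 copies of CACGTG in the window searched, had ratios of 1.003, 1.18, 1.10 and 0.897. Whether the motif bears on the ratios was not tested.

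All 5 hydrolases among the members had intervals above 1, against 26.3% of all genes and 29.3% of those with at least 15 CPM. None was 25% higher, against 14.3% of all genes. Their counts are deep, so small ratios already had intervals above 1. Ctsa, a protease that also protects other lysosomal enzymes, had the highest ratio of the 5, with 8434 counts against 7189 and 1.21 (1.17 to 1.249). Ctsb, a cysteine protease, had 14568 counts against 13647, a ratio of 1.10 (1.08 to 1.13). Ctsd, the main aspartic protease, had 11556 counts against 10852, a ratio of 1.10 (1.07 to 1.13). Cathepsins B and D were close to each other, since Ctsd over Ctsb gave 0.998 (0.963 to 1.03). Ctsl, another cysteine protease, had 8386 counts against 8125, giving 1.07 (1.03 to 1.10), and Ctsl over Ctsb gave 0.967 (0.930 to 1.005). Hexa, the alpha subunit of beta-hexosaminidase, had 4244 counts against 4119, a ratio of 1.06 (1.02 to 1.11). Intervals this narrow cover counting error only, and differences of this size were not tested against the spread between cultures.

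Across 11 pairs of related members, 8 had a ratio of ratios whose interval excluded 1, 6 above and 2 below. Gabarapl1 and Ctsb each enter 2 of these pairs, and among all single genes tested, 26.3% had an interval above 1 and 28.6% below, so nothing is read from the count of pairs.

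**Figure D4:**
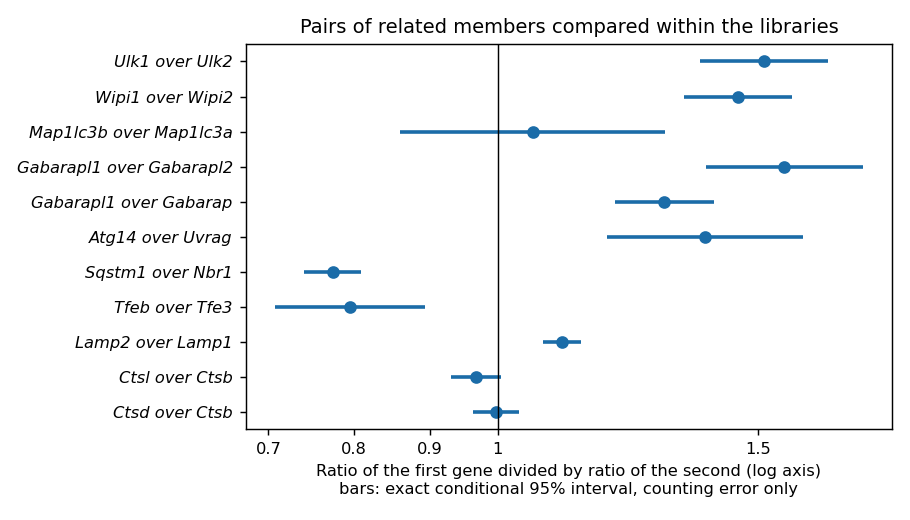
Each point is the ratio of the first gene divided by the ratio of the second on a log x axis, with a bar for the exact conditional 95% interval of counting error. Gabarapl1 over Gabarapl2, Ulk1 over Ulk2 and Wipi1 over Wipi2 lie farthest to the right at 1.56, 1.51 and 1.45, and the intervals of both cathepsin pairs include 1.

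Counting of overlapping genes limits some of these values, because no source used here states a strand setting. The spans of 16 of the 36 members overlap another gene. In 4 of them, Atg12, Map1lc3b, Ctsa and Ctsb, that gene had more than 10% of the member's counts summed over both libraries, and Atg7 passed 10% in the control alone, where Gm19040 had 60 counts against 582. Map1lc3b overlaps Zcchc14 by 64 bases, and Zcchc14 had a log2 ratio of -0.32, opposite in sign to that of Map1lc3b. For 7 members, Wipi1 and Tfe3 among them, at least 1 overlapping gene has no count row, so its share could not be checked.

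Other autophagy genes, from a list of 31 that held no member, lay on both sides of 1. Their median log2 ratio was -0.01, the value over all genes, with 8 intervals above 1 (25.8% against 26.3% of all genes) and 5 below (16.1% against 28.6%). At least 25% higher were 3, or 9.68% against 14.3%, and 0 were at least 20% lower against 11.3%. Calcoco1, a receptor for the breakdown of endoplasmic reticulum and Golgi, had 1887 counts against 843, for a ratio of 2.31 (2.13 to 2.51), and was the gene of the 31 that passed 2-fold. Ccpg1, another receptor for endoplasmic reticulum, had 752 counts against 487, a ratio of 1.59 (1.42 to 1.79). Zfyve1 (DFCP1), which marks the membrane sites where phagophores form, was also at least 25% higher but not past 1.5-fold. It had 1169 counts against 839 and a ratio of 1.44 (1.31 to 1.57).

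The lowest ratios of that list were those of Vmp1, a membrane protein needed for phagophore growth, with 38 counts against 48 and an interval of 0.519 to 1.28, and Nrbf2, a subunit of the lipid kinase complex, with 341 against 404 and an interval of 0.752 to 1.01. The 5 genes of the ATG4 proteases and Atg16l2 had intervals that included 1. Of the 6 genes of vesicle fusion, 0 had an interval above 1, against 26.3% of all genes, and 2 below (33.3% against 28.6%).

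Other lysosome genes also lay mostly above 1. Of 49 listed, 43 lay above the CPM minimum, and their median log2 ratio was 0.15. Intervals lay above 1 for 26 of the 43 (60.5% against 26.3% of all genes) and below 1 for 4 (9.30% against 28.6%). At least 25% higher were 6, or 13.95% against 14.3% of all genes, a share at the background. By at least 20%, 1 was lower, or 2.33% against 11.3%. The highest were Ctso, a little studied cathepsin, with 192 counts against 132 and a ratio of 1.501 (1.20 to 1.89), and Gla, the alpha-galactosidase, with 1352 against 967 and 1.44 (1.33 to 1.57). The lowest were Sgsh, a sulfatase of heparan sulfate breakdown, with 759 against 1034 and 0.757 (0.689 to 0.833), and Gusb, the beta-glucuronidase, with 1625 against 2071 and 0.810 (0.758 to 0.864).

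Subunits of the V-ATPase, the proton pump that acidifies the lysosome, had a median log2 ratio of 0.02 over 19 of 23 genes, with 4 intervals above 1 (21.1% against 26.3% of all genes) and 7 below (36.8% against 28.6%). The lowest was Atp6v0a2, a membrane subunit found mainly at the Golgi and endosomes, with 2202 counts against 3318 and a ratio of 0.685 (0.649 to 0.723). Next came Atp6v1h at 0.838 (0.790 to 0.888). The highest were Atp6v1g2, with 192 counts against 143 and 1.39 (1.11 to 1.73), and Atp6v0e2, with 376 against 295 and 1.31 (1.13 to 1.54). Pump subunits thus lay on both sides of 1.

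Nutrient-sensing genes that act at the lysosome, upstream of ULK1 and TFEB, had a median log2 ratio of -0.10 over 15 of 16 genes, with 3 intervals above 1 (20% against 26.3% of all genes) and 6 below (40% against 28.6%). Rragd, a Rag GTPase that brings mTORC1 to the lysosome, had 390 counts against 236, a ratio of 1.71 (1.45 to 2.01). Fnip1, a partner of folliculin, had 9088 counts against 7326, a ratio of 1.28 (1.24 to 1.32). Mlst8, a subunit of mTORC1, had 1164 counts against 1580, giving 0.760 (0.704 to 0.821), and Lamtor3, part of the lysosomal anchor of the Rag GTPases, 703 against 915 and 0.793 (0.718 to 0.876). The kinase gene Mtor itself, outside the naming rule, had 393 counts against 424, with an interval of 0.832 to 1.10.

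**Figure D5:**
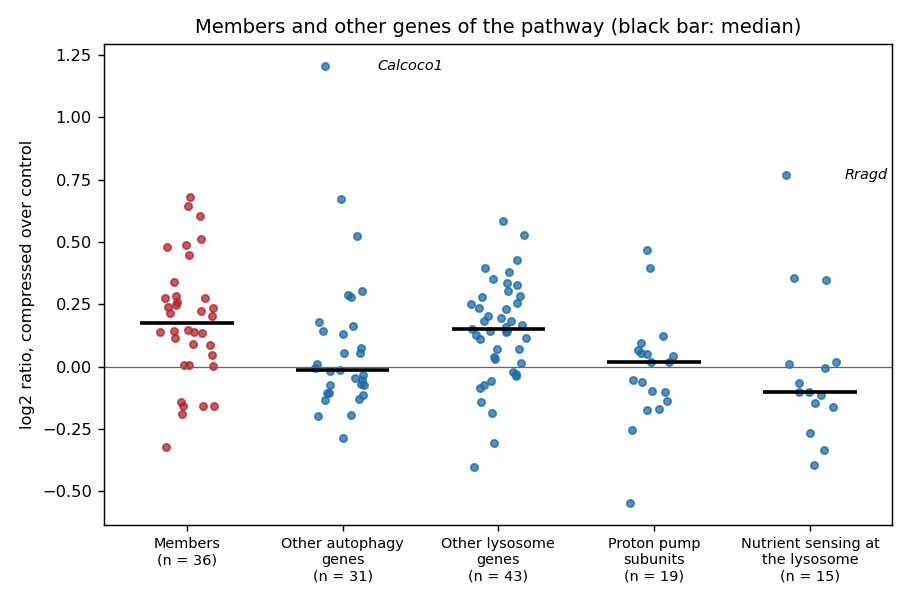
Each point is a gene above the CPM minimum, with its log2 ratio of the compressed over the control library on the y axis, and black bars give the median of each list. The medians are 0.18 for the members and 0.15 for other lysosome genes, against -0.01, 0.02 and -0.10 for other autophagy genes, proton pump subunits and nutrient sensing genes; Calcoco1 and Rragd are the highest points of their lists.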

How the data were processed

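Whole-number read counts per gene were deposited by the authors for 2 RNA sequencing libraries, with no normalization. The submitters' processing notes name HISAT2, an aligner, and the build GRCm38. No source used here states the counting tool, the strand setting or how multiply aligned reads were handled. Library sizes were scaled by TMM in edgeR 4.0.16 (R 4.3.3), which gave factors of 0.9996 and 1.0004. The log2 ratio used a prior count of 0.5, and the interval was the exact 95% conditional binomial (Clopper-Pearson) interval, from sequenced reads that are not independent molecules. A gene was tested above 1 CPM in either library and called past a fold on the log2 ratio when the interval excluded 1. No p-value was computed, since 1 library per group leaves no residual degrees of freedom. The ratio code was tested on simulated counts. Older symbols of 3 listed genes were matched through RefSeq synonyms.

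Members, pairs and lists were chosen with earlier results of these data known. Every member was described, and from each other list the 2 highest and 2 lowest ratios, with some further genes named beside related members. Alternatives were total-count, DESeq2 1.42.0, upper-quartile and loess scaling (limma 3.58.1), other CPM minimums, a prior count of 5, no interval and a wider interval.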

Additional observations from a re-analysis of the deposited data

How the results depend on the processing

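The median log2 ratio of the 36 members lay between 0.15 and 0.19 under the scalings, CPM minimums and prior count tried, and 8 members were at least 25% higher in each, or 7 with the interval widened for an assumed coefficient of variation of 0.1 between cultures. The signs of Atg12, Tfeb and Lamp1, all near 0, changed with scaling. The 1 member at least 20% lower, Atg5, became 0 with upper-quartile factors, the loess fit, a prior count of 5 and the widened interval. At the same limits, that interval left 3 higher and 0 lower of the other lysosome genes, against 6 and 1 at the main setting. Proton pump subunits went from 2 higher (10.5%) to 0, with 1 lower (5.26%) kept. Nutrient-sensing genes went from 3 higher (20%) and 2 lower (13.3%) to 1 and 0. Over all genes the main shares were 14.3% higher and 11.3% lower, and those with the widened interval were not computed. With no CPM minimum, 2 other lysosome genes were higher past 2-fold and 2 past 1.5-fold, and 1 proton pump subunit past both. These genes had few counts: Ctsf 17 against 4, Mcoln3 10 against 2 and Atp6v1b1 12 against 3. The share over all genes was not computed at that setting. Upper-quartile factors put 1 other lysosome gene past 1.5-fold, and the loess fit left 1 lower nutrient-sensing gene. At 15 CPM, chosen after the data were seen, 1 proton pump subunit was at least 25% higher. No paired analysis was possible because each group has 1 library, so no library could be left out either. Depth limited Atg10 most among the members, with 56 counts in all.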

Other observations

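Relatives of members outside the lists were looked at after their values were seen. Ulk3, a kinase related to Ulk1, had 667 counts under compression and 349 in the control, a ratio of 1.97 (95% counting interval 1.73 to 2.25), above that of Ulk1. Atg9b, the relative of Atg9a, had 57 counts against 31, a ratio of 1.90 (1.20 to 3.04). Ulk4 had 10 counts against 4 and an interval of 0.744 to 11.3. The pseudogene Atg4a-ps had 43 counts against 38, with an interval of 0.737 to 1.86. These values come from 1 library per group and have no replicate check.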
